A study of Mus musculus with 2 samples.

Results

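Foamy macrophages of the mouse aorta were described from single-cell RNA-seq of 1 Kif13b-/- library and 1 WT library. The foamy state was selected on measured values: a barcode needed at least 2000 UMIs (transcript molecules counted once each) and at most 20% mitochondrial UMIs. It also needed at least 2000 CPM (UMIs of a gene scaled to the same total per barcode or group) of C1qa, C1qb and C1qc summed, under 2000 CPM of Acta2 plus Tagln, and under 2000 CPM of Dcn plus Lum. The last condition was at least 5000 CPM of Spp1, Trem2 and Gpnmb summed, called the gate sum below. These conditions kept 391 of the 28892 barcodes of the series, 177 in the Kif13b-/- library and 214 in the WT library. The barcodes that met all conditions but the last, 182 in Kif13b-/- and 380 in WT, are called other C1q barcodes. Both libraries are labelled aorta, by title, source and tissue, and were made with 10x 3' chemistry. The series' design text describes bone marrow-derived macrophages fed dying cells instead, and no such sample is among those analysed here. One library has Kif13b-/- in its title and a Kif13b knock down in its genotype field, so Kif13b-/- stands here for the library labelled so. The study's title places the work in atherosclerosis and in efferocytosis, the uptake of dying cells, through the receptor MERTK. Strain background, age, sex, diet, the deleted part of Kif13b and the number of animals behind a library are not given in the labels read here. Since each genotype is 1 library, no difference was tested. Intervals are at 95% and cover counting error only, and animal-to-animal spread is unknown.

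Foamy macrophages are macrophages of the arterial wall that have taken up lipoprotein lipid and store its cholesterol as droplets. TREM2 is a surface receptor for lipids and lipoproteins that signals through the adaptor TYROBP, and TREM2-expressing macrophages with lipid-handling and lysosomal genes are a known population of mouse plaques. Lipoprotein cholesterol is taken up by scavenger receptors, hydrolysed in acid lysosomes, re-esterified for storage and exported by ABC transporters to apolipoprotein acceptors. Kif13b encodes a kinesin-3 motor that carries cargo along microtubules.

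The depth of the foamy barcodes differed between the libraries. Their median was 16680 UMIs in Kif13b-/- and 11482.5 UMIs in WT, against 12106.5 UMIs in Kif13b-/- and 8304.5 UMIs in WT other C1q barcodes. Summed over foamy barcodes, 3091696 UMIs were counted in Kif13b-/- and 2674751 in WT. The median mitochondrial share was 3.37% in Kif13b-/- and 2.78% in WT foamy barcodes, against 2.97% in Kif13b-/- and 2.36% in WT other C1q barcodes. The libraries shared 52 barcode sequences, and no barcode was foamy in both. Each library held more barcodes than the 6000 cells loaded, 7766 in Kif13b-/- and 21126 in WT.

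The markers of T cells and red blood cells were at or near 0. The 8 macrophage markers summed to 11544 CPM in Kif13b-/- and 10857 CPM in WT foamy barcodes. C1qa, C1qb and C1qc, which the rule required, are among them and made most of that sum. Of the markers the rule did not use, Csf1r had a UMI in 81.4% of Kif13b-/- and 80.8% of WT foamy barcodes. Adgre1 had one in 97.2% of Kif13b-/- and 87.4% of WT foamy barcodes. The T cell markers summed to 4.20 CPM in Kif13b-/- and 5.61 CPM in WT foamy barcodes, and the 4 haemoglobin genes were at 0 in both. Of the 5 markers that name the state, Atp6v0d2 and Lpl were not used by the rule and are given with the results. Smooth muscle markers, held low by the rule, summed to 155 CPM in Kif13b-/- and 151 CPM in WT foamy barcodes, and fibroblast markers to 203 CPM in Kif13b-/- and 308 CPM in WT. The 5 osteoclast markers summed to 507 CPM in Kif13b-/- and 463 CPM in WT foamy barcodes, with Calcr and Ocstamp at 0 and Ctsk and Acp5 described below. The 5 neutrophil markers differed between the libraries, at 522 CPM in Kif13b-/- and 19.1 CPM in WT foamy barcodes. All Ngp UMIs and 856 of the 858 S100a9 UMIs of the Kif13b-/- foamy barcodes lay in 9 barcodes with at least 1000 CPM of neutrophil markers and a median of 3143 UMIs. No WT foamy barcode reached that level.

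Foamy barcodes made up a larger part of the C1q barcodes in the Kif13b-/- library. They were 177 of 359, or 49.3% (44.0% to 54.6%, exact Clopper-Pearson), in Kif13b-/- and 214 of 594, or 36.0% (32.2% to 40.0%), in WT, a ratio of 1.37. Of all barcodes past the depth and mitochondrial limits they were 3.02% (2.60% to 3.49%) in Kif13b-/- and 1.95% (1.70% to 2.22%) in WT. The direction turned when the same foamy barcodes were set against C1q barcodes before the Acta2, Tagln, Dcn and Lum limits. The share was then 12.6% (10.9% to 14.5%) in Kif13b-/- and 19.8% (17.5% to 22.3%) in WT. Those limits removed 1044 of 1403 C1q barcodes (74.4%) in Kif13b-/- and 487 of 1081 (45.1%) in WT. With no such limits on either the foamy or the other C1q barcodes, the foamy share was 79.6% in Kif13b-/- and 48.1% in WT. The ratio of the shares stayed between 1.34 and 1.66 over 12 other settings that moved both sides of the share together.

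**Figure D1:**
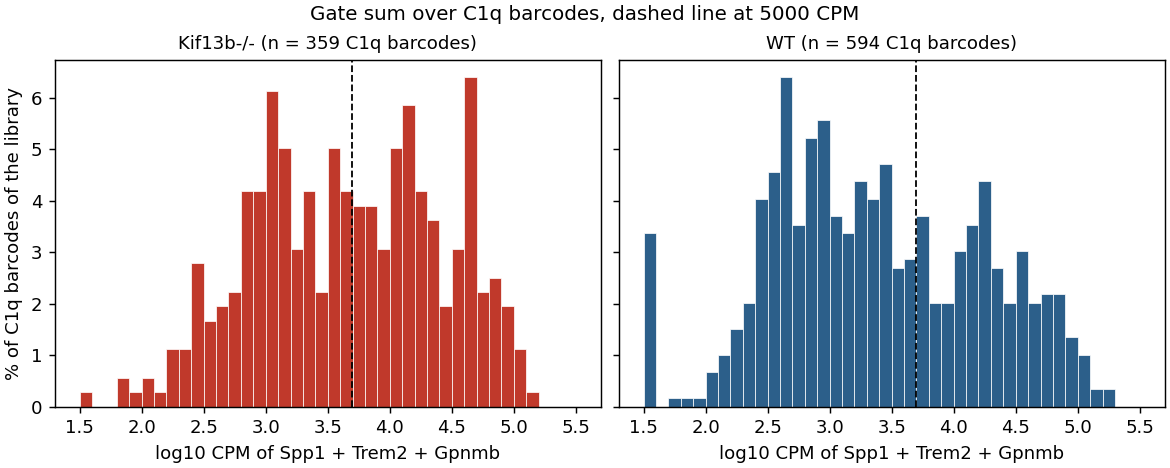
Histogram of the gate sum (Spp1 + Trem2 + Gpnmb, log10 CPM) over the C1q barcodes of the Kif13b-/- library (left) and the WT library (right), as percent of the C1q barcodes of the library. The dashed line is the 5000 CPM threshold; barcodes at 31.6 CPM or less, those at 0 included, stand in the lowest bin, and neither library shows an empty gap at the threshold.

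The threshold cut a continuous distribution. Just outside it, at 4000 to 5000 CPM, lay 14 Kif13b-/- and 16 WT barcodes, and just inside, at 5000 to 6000 CPM, lay 12 Kif13b-/- and 15 WT barcodes. Spp1 averaged 4213 CPM in Kif13b-/- and 4381 CPM in WT just inside, against 3618 CPM in Kif13b-/- and 2992 CPM in WT just outside. Atp6v0d2, which the rule did not use, was not higher just inside: it was 124 CPM in Kif13b-/- and 36.0 CPM in WT, against 202.0 CPM in Kif13b-/- and 39.7 CPM in WT just outside. These levels rest on 44 UMIs or fewer each. Lpl, likewise not used, went opposite ways in the libraries, at 231 CPM in Kif13b-/- and 333 CPM in WT just inside, against 533 CPM in Kif13b-/- and 165.5 CPM in WT just outside.

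C1qa, C1qb and C1qc, which encode the chains of complement C1q and which the rule used for all C1q barcodes, stood between 2575 and 3544 CPM in Kif13b-/- and between 2535 and 3276 CPM in WT foamy barcodes. Spp1, which encodes the secreted phosphoprotein osteopontin, carried most of the gate sum. Per foamy barcode it ranged from 878 to 139860 CPM with a median of 15789 CPM in Kif13b-/-, and from 93.0 to 143700 CPM with a median of 17289 CPM in WT. Trem2 had a median of 1058 CPM in Kif13b-/- and 915 CPM in WT foamy barcodes. Gpnmb, which encodes a transmembrane glycoprotein, was uneven, with a UMI in 69.5% of Kif13b-/- and 61.7% of WT foamy barcodes, or 49.2% in Kif13b-/- and 47.7% in WT with each barcode thinned to 2000 UMIs. Trem2 plus Gpnmb stayed under 1000 CPM in 43 Kif13b-/- and 73 WT foamy barcodes, which entered mainly through Spp1. Spp1 alone was under 5000 CPM in 18 Kif13b-/- and 12 WT foamy barcodes. Spp1 was also abundant outside the C1q barcodes, at 13804 CPM in Kif13b-/- and 15198 CPM in WT barcodes with under 200 CPM of C1q genes. With each barcode thinned to 2000 UMIs, it had a UMI in 36.5% of Kif13b-/- and 35.1% of WT barcodes gated on T cell genes. Trem2 had a UMI in 86.4% of Kif13b-/- and 81.3% of WT foamy barcodes on the same scale. It had a UMI in 0 of 63 T cell-gated barcodes in Kif13b-/- and 0 of 131 in WT, which allows shares of up to 5.69% in Kif13b-/- and 2.78% in WT (upper exact bounds).

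The promoters of the 3 gate genes are shown because their RNA defines the state. They run from 250 bases before to 50 bases after the RefSeq start, on GRCm38.p6, plus strand, with capitals marking a searched motif. Spp1 (chr5:104434861-104435160) and Trem2 (chr17:48346151-48346450) each held the PU.1 core, GAGGAAG or its reverse complement CTTCCTC, 113 and 41 bases before the start, and Gpnmb (chr6:49036268-49036567) held the AP-1 site TGACTCA 8 bases after it.
Spp1: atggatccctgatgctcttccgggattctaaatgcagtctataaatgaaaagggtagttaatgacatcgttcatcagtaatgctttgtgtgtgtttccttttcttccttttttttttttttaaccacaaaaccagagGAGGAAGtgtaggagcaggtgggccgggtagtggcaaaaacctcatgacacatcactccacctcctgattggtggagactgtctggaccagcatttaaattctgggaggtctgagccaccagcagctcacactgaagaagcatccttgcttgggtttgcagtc
Trem2: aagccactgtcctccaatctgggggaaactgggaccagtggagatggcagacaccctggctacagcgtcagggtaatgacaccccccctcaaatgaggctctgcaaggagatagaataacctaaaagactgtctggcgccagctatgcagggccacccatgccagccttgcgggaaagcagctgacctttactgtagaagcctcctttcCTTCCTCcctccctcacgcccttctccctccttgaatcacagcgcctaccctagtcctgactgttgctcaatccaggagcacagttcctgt
Gpnmb: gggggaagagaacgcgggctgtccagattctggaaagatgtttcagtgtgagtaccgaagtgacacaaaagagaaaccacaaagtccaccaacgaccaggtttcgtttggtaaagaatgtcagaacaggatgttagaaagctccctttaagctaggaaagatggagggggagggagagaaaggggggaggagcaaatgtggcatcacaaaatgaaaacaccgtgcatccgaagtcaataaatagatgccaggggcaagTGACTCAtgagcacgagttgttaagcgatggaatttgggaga
Over both strands, promoters were searched for the E-box CACGTG, the M-box form TCATGTG, the AP-1 site TGAGTCA and the PU.1 core GAGGAAG. Of 16 genes, the 3 gate genes, Lpl and the 12 with the highest foamy ratios, 12 matched the promoter table. Spp1 has a further listed start, with no searched motif. The PU.1 core was in 4 of the 12, the AP-1 site in 2 and the E-box in 1 (Ctsl), and the M-box form in none. Of all 32851 promoters of that length, 13.6% held the PU.1 core, 5.20% the AP-1 site, 7.15% the E-box and 3.77% the M-box form. A match describes letters only.

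Against other C1q barcodes, and under the main settings, the foamy barcodes had a lipid and lysosomal pattern in both libraries. They also had low antigen presentation, interferon and inflammatory RNA in both. Because the barcodes were cut on values of the same RNA, this contrast is a description. Of 9850 genes with at least 20 UMIs in each library, 889 (9.03%) were at least 1.5-fold higher in foamy barcodes of both libraries and 971 (9.86%) at least 1.5-fold lower. Taken alone, 16.8% of genes were that much higher and 16.9% lower in Kif13b-/-, and 17.6% higher and 18.4% lower in WT. Over all genes the median log2 ratio was 0.01 in Kif13b-/- and 0.02 in WT. A gene is called higher or lower below where it passed 1.5-fold in both libraries.

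**Figure D2:**
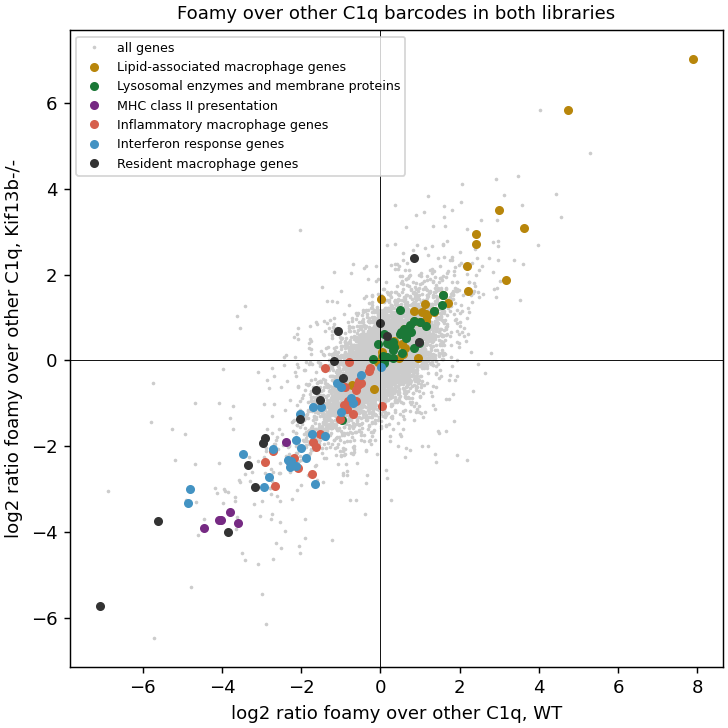
log2 ratio of foamy over other C1q barcodes for each gene in the Kif13b-/- library (vertical axis) against the WT library (horizontal axis), with 6 gene lists coloured and all genes in grey. Lipid-associated genes reach the upper right, with a list median of 1.06 in Kif13b-/- and 1.06 in WT, while the 7 measured MHC class II genes lie in the lower left. Cd5l, at 7.02 in Kif13b-/- and 7.89 in WT, was held by few foamy barcodes.

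Genes outside the gate were ranked if they had at least 50 CPM and 50 UMIs in each library and were not in a class left out, as given with the processing. Among these, the 12 with the highest foamy ratios were Cd5l, Ctsk, Mfge8, Npy, Atp6v0d2, Ctsl, Mamdc2, Htr2b, Dhrs9, Fabp5, Syngr1 and Rnf128. Cd5l, a scavenger receptor protein that macrophages secrete, stood at 188 CPM in Kif13b-/- and 379 CPM in WT foamy barcodes, against 1.24 CPM in Kif13b-/- and 1.46 CPM in WT other C1q barcodes, and few barcodes held it, with a UMI in 8.47% of Kif13b-/- and 12.6% of WT foamy barcodes. Syngr1, a vesicle membrane protein best known from synapses, was widespread, at 249.7 CPM in Kif13b-/- and 235 CPM in WT foamy barcodes, against 38.0 CPM in Kif13b-/- and 44.3 CPM in WT other C1q barcodes. Rnf128, an E3 ubiquitin ligase, stood at 141 CPM in Kif13b-/- and 124 CPM in WT foamy barcodes, against 23.1 CPM in Kif13b-/- and 23.6 CPM in WT other C1q barcodes. Htr2b, a serotonin receptor, stood at 72.1 CPM in Kif13b-/- and 66.9 CPM in WT foamy barcodes, against 10.3 CPM in Kif13b-/- and 8.45 CPM in WT other C1q barcodes. Mamdc2 and Dhrs9, a short-chain dehydrogenase, had log2 ratios between 2.55 and 3.28 in the libraries. The 12 lowest were H2-Eb1, H2-Aa, H2-Ab1, Plbd1, Oasl1, Cd74, Ccr2, Ifit1, Ifnb1, Areg, Ccl5 and Fap. Ccr2, the receptor that brings monocytes into tissue, stood at 7.44 CPM in Kif13b-/- and 5.23 CPM in WT foamy barcodes, against 62.8 CPM in Kif13b-/- and 82.4 CPM in WT other C1q barcodes. Ccl5, a chemokine for T cells and monocytes, stood at 169 CPM in Kif13b-/- and 253 CPM in WT foamy barcodes, against 1276 CPM in Kif13b-/- and 1601 CPM in WT other C1q barcodes. Plbd1, a phospholipase B-like protein, stood at 9.70 CPM in Kif13b-/- and 10.1 CPM in WT foamy barcodes, against 149 CPM in Kif13b-/- and 128 CPM in WT other C1q barcodes. Fap, a surface protease known from activated fibroblasts, stood at 30.7 CPM in Kif13b-/- and 36.6 CPM in WT foamy barcodes, against 192 CPM in Kif13b-/- and 394 CPM in WT other C1q barcodes, while fibroblast markers were held low by the rule on both sides.

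Genes of lipid-associated macrophages outside the gate were mostly higher. Of 36 measured, 23 were higher in both libraries and none lower, with a median log2 ratio of 1.06 in Kif13b-/- and 1.06 in WT. Atp6v0d2, a subunit of the proton pump that acidifies lysosomes, stood at 319.6 CPM in Kif13b-/- and 273 CPM in WT foamy barcodes, against 37.6 CPM in Kif13b-/- and 22.1 CPM in WT other C1q barcodes. Lpl, the lipoprotein lipase that frees fatty acids from triglyceride, stood at 685 CPM in Kif13b-/- and 909 CPM in WT foamy barcodes, against 186 CPM in Kif13b-/- and 101 CPM in WT other C1q barcodes. Fabp5, a fatty acid carrier, stood at 1857 CPM in Kif13b-/- and 2438 CPM in WT foamy barcodes, against 241 CPM in Kif13b-/- and 454 CPM in WT other C1q barcodes. All 3 were higher in foamy barcodes of each library. Cd9, a tetraspanin of the cell surface, stood at 2577 CPM in Kif13b-/- and 2481 CPM in WT foamy barcodes, against 1016 CPM in Kif13b-/- and 764 CPM in WT other C1q barcodes. Lgals3, the glycan-binding galectin-3, stood at 5518 CPM in Kif13b-/- and 4985 CPM in WT foamy barcodes, against 2526 CPM in Kif13b-/- and 2411 CPM in WT other C1q barcodes. Apoe, the apolipoprotein that accepts exported cholesterol, stood at 17833 CPM in Kif13b-/- and 17075 CPM in WT foamy barcodes, against 9571 CPM in Kif13b-/- and 8077 CPM in WT other C1q barcodes.

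**Figure D3:**
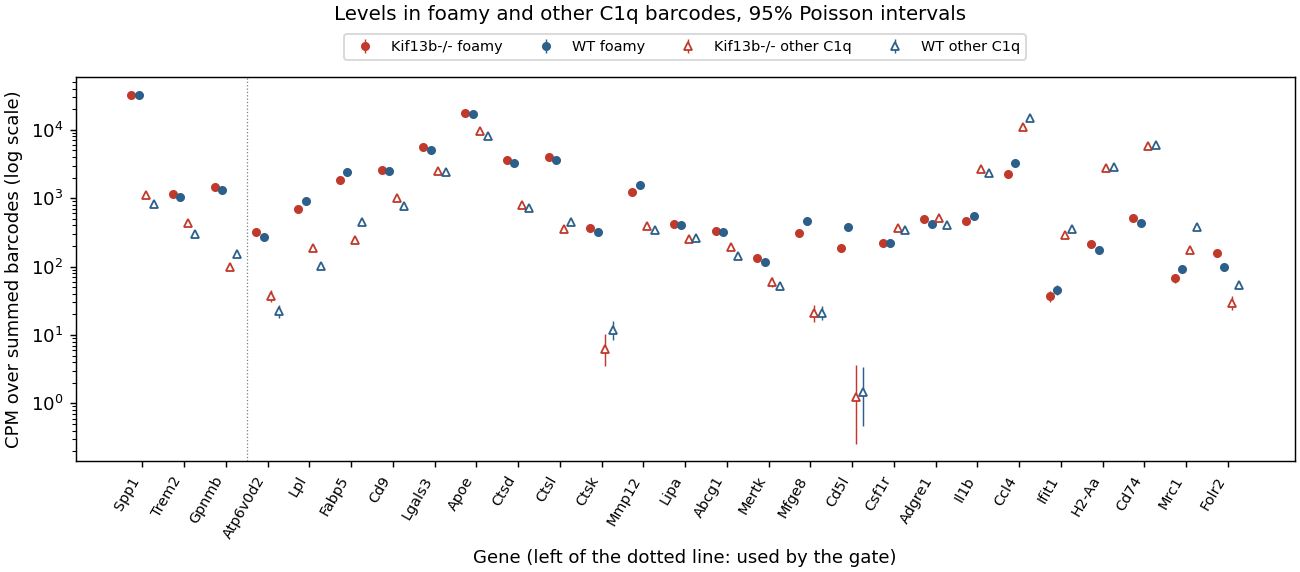
CPM on a log scale of 27 genes summed over Kif13b-/- foamy (filled red circles), WT foamy (filled blue circles), Kif13b-/- other C1q (open red triangles) and WT other C1q barcodes (open blue triangles), with 95% Poisson intervals. Genes left of the dotted line were used by the gate; Ctsk stands at 363 CPM in Kif13b-/- and 323 CPM in WT foamy barcodes, against 6.20 CPM in Kif13b-/- and 11.9 CPM in WT other C1q barcodes.

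Other steps of lipid handling were mixed. Over all genes, 9.03% were higher and 9.86% lower in both libraries. The median log2 ratio was 0.45 in Kif13b-/- and 0.02 in WT for uptake genes, and 0.32 in Kif13b-/- and 0.26 in WT for storage and hydrolysis genes. Among 13 measured uptake genes 5 were higher and none lower: Msr1, a scavenger receptor, Lrp1, an endocytic receptor, its chaperone Lrpap1, Cd68 and Cd5l. Cd36, a further scavenger receptor, split the libraries, at a log2 ratio of 1.44 in Kif13b-/- and 0.02 in WT. Of 21 storage and hydrolysis genes 7 were higher and 1 lower. The 7 included Soat1, which esterifies cholesterol, at 165 CPM in Kif13b-/- and 195 CPM in WT foamy barcodes, against 99.6 CPM in Kif13b-/- and 129 CPM in WT other C1q barcodes. They also included Lipa, the lysosomal acid lipase, at 416 CPM in Kif13b-/- and 402 CPM in WT foamy barcodes, against 251 CPM in Kif13b-/- and 264 CPM in WT other C1q barcodes. Plin2, which coats lipid droplets, did not separate the groups, at 528 CPM in Kif13b-/- and 548 CPM in WT foamy barcodes, against 543 CPM in Kif13b-/- and 571 CPM in WT other C1q barcodes. Of 20 efflux and liver X receptor genes 3 were higher (Abcg1, Apoe and Smpdl3a) and 2 lower. Abcg1, the exporter to high-density lipoprotein, had log2 ratios of 0.80 in Kif13b-/- and 1.16 in WT, and Abca1, the exporter to lipid-poor apolipoprotein, 0.31 in Kif13b-/- and 0.32 in WT. Of 15 cholesterol synthesis genes 2 were higher and none lower. The median log2 ratio was 0.13 in Kif13b-/- and 0.24 in WT for efflux and liver X receptor genes, and -0.10 in Kif13b-/- and -0.05 in WT for synthesis genes.

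Lysosomal protease genes had a larger median ratio than the subunits of the proton pump. Of 14 cathepsins and cystatins 8 were higher and 1 lower, with a median log2 ratio of 0.85 in Kif13b-/- and 0.79 in WT. Ctsk, a collagen-degrading cathepsin also used by osteoclasts, had log2 ratios of 5.82 in Kif13b-/- and 4.74 in WT. Ctsl, a lysosomal cysteine protease, stood at 3991 CPM in Kif13b-/- and 3559 CPM in WT foamy barcodes, against 354 CPM in Kif13b-/- and 448 CPM in WT other C1q barcodes, and Ctsd, the lysosomal aspartic protease, at 3598 CPM in Kif13b-/- and 3245 CPM in WT foamy barcodes, against 785 CPM in Kif13b-/- and 713 CPM in WT other C1q barcodes. Ctsc, which activates granule proteases, was the 1 lower member, at 254 CPM in Kif13b-/- and 329 CPM in WT foamy barcodes, against 523 CPM in Kif13b-/- and 494 CPM in WT other C1q barcodes. Of 34 lysosomal enzyme and membrane genes 11 were higher and 1 lower, with a median of 0.48 in Kif13b-/- and 0.50 in WT. Of 18 V-ATPase subunits 7 were higher and none lower, with a median of 0.44 in Kif13b-/- and 0.29 in WT. Among 17 MiT/TFE factors and lysosomal mTORC1 regulators, Mitf itself was lower, at 467 CPM in Kif13b-/- and 471 CPM in WT foamy barcodes, against 752 CPM in Kif13b-/- and 773 CPM in WT other C1q barcodes. Rragd, a GTPase that tethers mTORC1 to lysosomes, was higher on few UMIs, at 15.5 CPM in Kif13b-/- and 9.35 CPM in WT foamy barcodes, against 3.72 CPM in Kif13b-/- and 5.54 CPM in WT other C1q barcodes.

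The osteoclast genes did not move as a group. Ctsk was the only one higher of 10 measured, and Dcstamp, which takes part in osteoclast fusion, and Jdp2 were lower. The osteoclast markers Calcr and Ocstamp were at 0 in foamy barcodes of both libraries. Acp5, the tartrate-resistant phosphatase, stood at 144 CPM in Kif13b-/- and 140.2 CPM in WT foamy barcodes, against 166 CPM in Kif13b-/- and 139.8 CPM in WT other C1q barcodes.

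Matrix and secreted products were mixed. Of 19 matrix proteases and inhibitors 8 were higher and 2 lower. Mmp12, the macrophage elastase, stood at 1222 CPM in Kif13b-/- and 1586 CPM in WT foamy barcodes, against 397 CPM in Kif13b-/- and 341 CPM in WT other C1q barcodes. Timp2, an inhibitor of matrix metalloproteases, stood at 1059 CPM in Kif13b-/- and 877 CPM in WT foamy barcodes, against 381 CPM in Kif13b-/- and 316 CPM in WT other C1q barcodes. Mmp13, a collagenase, was lower, at 7.76 CPM in Kif13b-/- and 12.7 CPM in WT foamy barcodes, against 48.0 CPM in Kif13b-/- and 62.9 CPM in WT other C1q barcodes. Of 24 growth factors and mediators 7 were higher and 4 lower, the lower including Areg, an epidermal growth factor receptor ligand, at 18.8 CPM in Kif13b-/- and 43.4 CPM in WT foamy barcodes, against 245 CPM in Kif13b-/- and 297 CPM in WT other C1q barcodes. Npy, a neuropeptide precursor, was among the 12 genes with the highest foamy ratios, at 240 CPM in Kif13b-/- and 315 CPM in WT foamy barcodes, against 11.99 CPM in Kif13b-/- and 28.3 CPM in WT other C1q barcodes.

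Of 17 measured efferocytosis receptors and bridging molecules, Mertk, Mfge8, Lrp1 and Anxa1 were higher and Axl and Thbs1 lower. Mertk, a receptor tyrosine kinase that binds dying cells through bridging proteins, stood at 132 CPM in Kif13b-/- and 117 CPM in WT foamy barcodes, against 59.5 CPM in Kif13b-/- and 52.1 CPM in WT other C1q barcodes. Mfge8, which bridges phosphatidylserine to integrins, stood at 306 CPM in Kif13b-/- and 462 CPM in WT foamy barcodes, against 20.7 CPM in Kif13b-/- and 21.3 CPM in WT other C1q barcodes. Its RNA was concentrated, since 3 barcodes held 48.8% of its UMIs in Kif13b-/- and 53.3% in WT foamy barcodes. Mfge8 was also abundant outside the C1q barcodes, at 465 CPM in Kif13b-/- and 523 CPM in WT barcodes with under 200 CPM of C1q genes. Axl, a receptor of the same family as MERTK, went the other way, at 53.4 CPM in Kif13b-/- and 58.7 CPM in WT foamy barcodes, against 193 CPM in Kif13b-/- and 133 CPM in WT other C1q barcodes. Gas6, a ligand of both receptors, had log2 ratios of 0.56 in Kif13b-/- and 0.16 in WT. Of 26 engulfment and phagosome genes 1 (Atg5) was higher and none lower.

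Kif13b (chr14:64647265-64809617, plus strand, mm10) was detected in both libraries, at 68.6 CPM in Kif13b-/- and 74.0 CPM in WT foamy barcodes, against 32.7 CPM in Kif13b-/- and 47.5 CPM in WT other C1q barcodes. A UMI was present in 46.9% of Kif13b-/- and 50.9% of WT foamy barcodes. At 2000 UMIs each the shares were 7.91% of Kif13b-/- and 14.5% of WT foamy barcodes, against 14.3% of Kif13b-/- and 21.4% of WT T cell-gated barcodes. Kif13b was the only one of 6 measured kinesin-3 genes that was higher in foamy barcodes. In foamy barcodes the log2 ratio of Kif13b-/- over WT was -0.11 (interval -0.40 to 0.18), so the RNA did not check the genotype label. The ratio was -1.02 with no stromal limits. It was 0.45 in a separate draw of 2000 UMIs per barcode, in which the limits of the rule were applied again to the thinned counts. The thinned values rest on few UMIs, and the draws also differ in which barcodes count as foamy. A 3' tag outside the deleted part of a gene checks nothing, and which part was deleted is not given here.

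MHC class II genes had the lowest median of the lists. All 7 measured were lower in both libraries, with a median log2 ratio of -3.71 in Kif13b-/- and -3.79 in WT. H2-Aa, a class II chain, stood at 211 CPM in Kif13b-/- and 175 CPM in WT foamy barcodes, against 2794 CPM in Kif13b-/- and 2845 CPM in WT other C1q barcodes. Cd74, the invariant chain, stood at 511 CPM in Kif13b-/- and 428 CPM in WT foamy barcodes, against 5865 CPM in Kif13b-/- and 5923 CPM in WT other C1q barcodes. Per barcode, the summed list had a median of 110 CPM in Kif13b-/- and 121 CPM in WT foamy barcodes, against 4849 CPM in Kif13b-/- and 12014 CPM in WT other C1q barcodes. Most foamy barcodes held little, and the maximum reached 27928 CPM in Kif13b-/- and 27050 CPM in WT.

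Interferon response genes were lower in 23 of 26 cases and higher in none, with a median log2 ratio of -1.94 in Kif13b-/- and -1.95 in WT. Ifit1, an antiviral effector, stood at 36.5 CPM in Kif13b-/- and 45.6 CPM in WT foamy barcodes, against 285 CPM in Kif13b-/- and 349.6 CPM in WT other C1q barcodes. The type I interferon gene Ifnb1 stood at 15.8 CPM in Kif13b-/- and 15.0 CPM in WT foamy barcodes, against 113 CPM in Kif13b-/- and 149 CPM in WT other C1q barcodes. Inflammatory genes were lower in 17 of 25 and higher in none. Il1b, the interleukin-1 beta precursor, stood at 468 CPM in Kif13b-/- and 551 CPM in WT foamy barcodes, against 2646 CPM in Kif13b-/- and 2339.9 CPM in WT other C1q barcodes. Ccl4, a chemokine, stood at 2257 CPM in Kif13b-/- and 3313 CPM in WT foamy barcodes, against 10848 CPM in Kif13b-/- and 14948 CPM in WT other C1q barcodes. Tnf, which encodes the cytokine TNF, was among the lower genes, at 1630.2 CPM in Kif13b-/- and 2036 CPM in WT foamy barcodes, against 2618 CPM in Kif13b-/- and 3132 CPM in WT other C1q barcodes.

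Resident macrophage genes were lower in 10 of 17 and higher in 1. Summed per barcode, the list did not separate the groups in Kif13b-/-, with a median of 1363 CPM in foamy and 1252 CPM in other C1q barcodes, and in WT the medians were 1359 CPM in foamy and 1666 CPM in other C1q barcodes. Mrc1, the mannose receptor, stood at 67.3 CPM in Kif13b-/- and 93.1 CPM in WT foamy barcodes, against 172 CPM in Kif13b-/- and 379 CPM in WT other C1q barcodes. Cd163, the haemoglobin scavenger receptor, had no UMI in foamy barcodes of either library. Against a floor of 3 UMIs per library that is at least 8.52-fold lower in Kif13b-/- and at least 22.6-fold lower in WT. Folr2, a folate receptor of resident macrophages, was the higher member, at 158 CPM in Kif13b-/- and 98.0 CPM in WT foamy barcodes, against 29.8 CPM in Kif13b-/- and 54.2 CPM in WT other C1q barcodes. Csf1r, the receptor for macrophage colony-stimulating factor, was lower, with log2 ratios of -0.72 in Kif13b-/- and -0.65 in WT, and Adgre1, which encodes F4/80, did not separate the groups, at -0.05 in Kif13b-/- and 0.03 in WT. Of 24 transcription factors of macrophage states, Bhlhe41 was higher and Maf, Mitf and Zeb2 lower.

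Glycolysis genes were higher in 7 of 19 cases and lower in none, among them Pkm, a pyruvate kinase, at 615 CPM in Kif13b-/- and 523 CPM in WT foamy barcodes, against 303 CPM in Kif13b-/- and 275 CPM in WT other C1q barcodes. Nuclear oxidative phosphorylation genes were higher in 3 of 31, and no fatty acid oxidation gene of 16 passed 1.5-fold in both libraries. Among 15 iron and haem genes 5 were higher and 3 lower. Hmox1, the inducible haem oxygenase, was lower, at 367 CPM in Kif13b-/- and 698 CPM in WT foamy barcodes, against 651 CPM in Kif13b-/- and 1140.3 CPM in WT other C1q barcodes. Of 18 NRF2 and oxidative stress genes 4 were higher (Gpx1, Gpx4, Cat and Mgst1) and 6 lower.

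Within the C1q barcodes, levels followed the gate sum step by step for several genes the rule did not use. Atp6v0d2 was 3.42 CPM in Kif13b-/- and 9.53 CPM in WT below 1000 CPM of gate sum, and 57.1 CPM in Kif13b-/- and 39.6 CPM in WT at 1000 to 5000 CPM. It was 256 CPM in Kif13b-/- and 187 CPM in WT at 5000 to 20000 CPM, and 370.1 CPM in Kif13b-/- and 346 CPM in WT from 20000 CPM up. H2-Aa ran the other way, from 4831 CPM in Kif13b-/- and 3402 CPM in WT in the lowest range to 66.1 CPM in Kif13b-/- and 29.0 CPM in WT in the highest. Ctsk was low short of the threshold, at 5.19 CPM in Kif13b-/- and 16.7 CPM in WT at 1000 to 5000 CPM and 476 CPM in Kif13b-/- and 505 CPM in WT in the highest range.

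**Figure D4:**
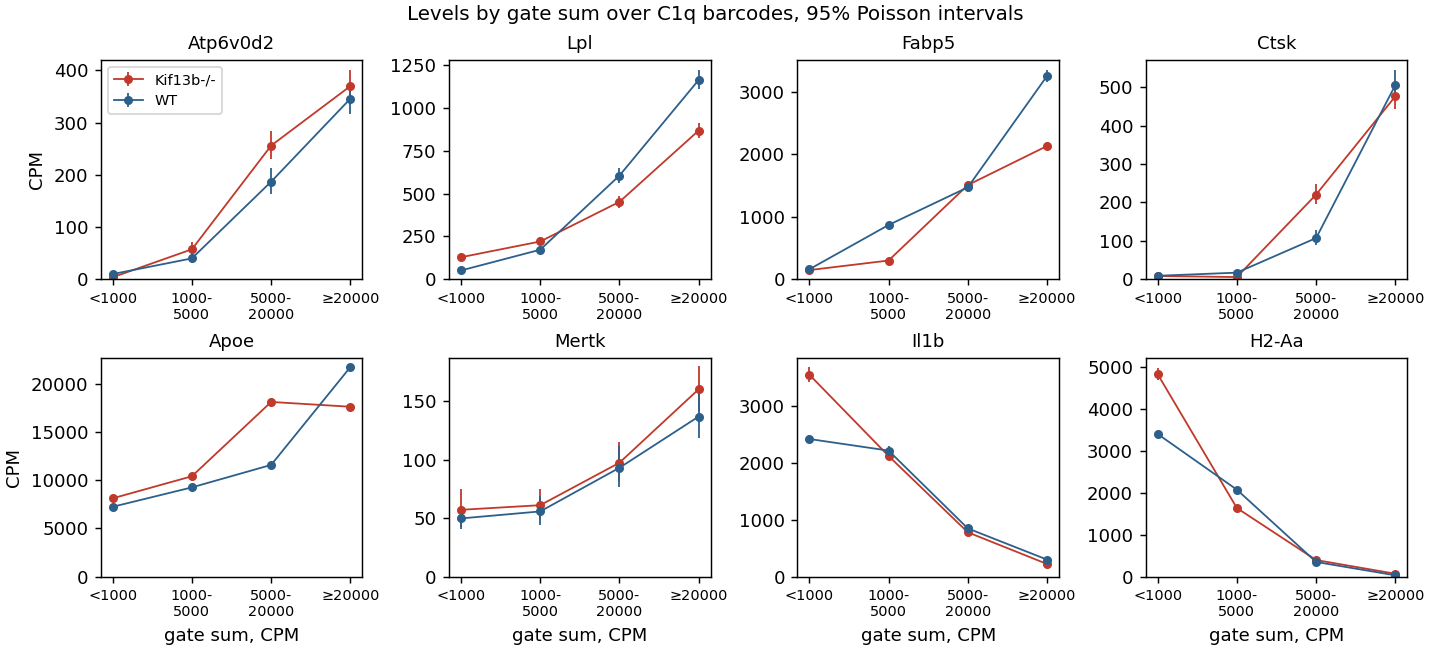
CPM of 8 genes over C1q barcodes in 4 ranges of the gate sum, for Kif13b-/- (red) and WT (blue), with 95% Poisson intervals. Atp6v0d2, Lpl, Fabp5 and Ctsk are highest in the top range of both libraries, Il1b and H2-Aa lowest.

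The foamy barcodes that entered through Spp1 differed from those rich in Trem2 and Gpnmb. Apoe was 20426 CPM in Kif13b-/- and 22668 CPM in WT foamy barcodes with at least 1000 CPM of Trem2 plus Gpnmb, against 7317 CPM in Kif13b-/- and 4617 CPM in WT foamy barcodes under that level. Fabp5 was 2225 CPM in Kif13b-/- and 3332 CPM in WT in the richer barcodes, against 365 CPM in Kif13b-/- and 449 CPM in WT in the others. Ctsl showed the same order, at 4797 CPM in Kif13b-/- and 4761 CPM in WT, against 721 CPM in Kif13b-/- and 881 CPM in WT. Cd9 was nearly level, at 2587 CPM in Kif13b-/- and 2521 CPM in WT, against 2538 CPM in Kif13b-/- and 2390.1 CPM in WT. Il1b was lower in the richer barcodes, at 272 CPM in Kif13b-/- and 414 CPM in WT, against 1266 CPM in Kif13b-/- and 854 CPM in WT.

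Across the 359 Kif13b-/- and 594 WT C1q barcodes, each thinned to 2000 UMIs, the genes that tracked the gate sum most closely were Cd9, Ctsd, Ctsb, Lgals3 and Fabp5. Spearman's rho was 0.58 in Kif13b-/- and 0.62 in WT for Cd9, and 0.51 in Kif13b-/- and 0.52 in WT for Fabp5. The 5 genes most opposed to it were Cd74, H2-Aa, H2-Eb1, H2-Ab1 and Ccl4. Cd74 had a rho of -0.60 in Kif13b-/- and -0.59 in WT. The likeness was ranked over 2652 genes, and the barcodes of a library share its free RNA.

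Between the genotypes, the lipid-associated genes of the foamy state were close under the main settings. In foamy barcodes 854 of 10203 genes (8.37%) were at least 1.5-fold higher in Kif13b-/- and 684 (6.7%) at least 1.5-fold lower. The interval also excluded equal levels for 427 (4.19%) of the higher and 353 (3.46%) of the lower genes. In other C1q barcodes the shares were 9.26% higher and 8.46% lower. The median log2 ratio of all genes was 0.03 in foamy and 0.04 in other C1q barcodes. Of the 36 lipid-associated genes none was higher in Kif13b-/- and 2 were lower, Fabp4 and Cd5l, with a median of 0.05. Over 17 other settings that median ran from -0.49 to 0.06, and it kept its sign in 14 of them. No cathepsin and no V-ATPase subunit passed 1.5-fold in either direction, and of 34 lysosomal genes only Smpd1 did. Under other settings the list median fell as low as -0.32 for cathepsins and cystatins and -0.49 for V-ATPase subunits.

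Lpl and Fabp5 were lower and Atp6v0d2 higher in Kif13b-/- foamy barcodes by amounts under 1.5-fold. The log2 ratio of Kif13b-/- over WT was -0.41 (interval -0.49 to -0.32) for Lpl, -0.39 (interval -0.44 to -0.34) for Fabp5 and 0.23 (interval 0.09 to 0.37) for Atp6v0d2. Mertk had a log2 ratio of 0.18 (interval -0.03 to 0.40), which includes equal levels, and 409 UMIs in Kif13b-/- and 312 in WT foamy barcodes. That ratio was -0.07 with each barcode weighing the same, -0.61 with no stromal limits and -0.45 with each barcode thinned to 2000 UMIs. The gate genes, cut by the rule in each library alike, stood at -0.02 for Spp1, 0.15 for Trem2 and 0.15 for Gpnmb.

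Among the named genes, the 4 with the largest Kif13b-/- excess were the neutrophil genes Ngp, S100a9, Camp and S100a8. The 9 barcodes named above held the Ngp and nearly all S100a9 UMIs. Camp, an antimicrobial peptide precursor, had 244 UMIs in Kif13b-/- and 1 in WT foamy barcodes. S100a9 stood at 278 CPM in Kif13b-/- and 1.496 CPM in WT foamy barcodes and S100a8 at 222 CPM in Kif13b-/- and 7.48 CPM in WT foamy barcodes. Ngp had 207 UMIs in Kif13b-/- and 0 in WT foamy barcodes, at least 59.7-fold higher against a floor of 3 UMIs over the group. The excess was not limited to foamy barcodes. In other C1q barcodes Ngp had 94 UMIs in Kif13b-/- and 0 in WT, and S100a9 had a log2 ratio of 3.07. Without barcodes that held markers of other cells, 167 Kif13b-/- and 211 WT foamy barcodes remained, and S100a8 was at -0.34. Rsad2, an interferon-induced antiviral enzyme, also rested on few barcodes: its log2 ratio of 1.26 was -1.39 without the 3 highest barcodes of each library.

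Other genes higher in Kif13b-/- were spread over many barcodes. Zmynd15, which encodes a zinc finger protein, stood at 147 CPM in Kif13b-/- and 53.1 CPM in WT foamy barcodes, a log2 ratio of 1.47 (interval 1.20 to 1.76). It had a UMI in 45.2% of Kif13b-/- and 27.6% of WT foamy barcodes, or 18.1% in Kif13b-/- and 10.3% in WT at 2000 UMIs each. Edil3, a secreted integrin ligand, stood at 58.9 CPM in Kif13b-/- and 19.1 CPM in WT foamy barcodes, a log2 ratio of 1.62 (interval 1.17 to 2.10). Cacna1a, a calcium channel subunit, stood at 96.7 CPM in Kif13b-/- and 42.2 CPM in WT foamy barcodes. Vegfa, the vascular endothelial growth factor, stood at 54.3 CPM in Kif13b-/- and 24.3 CPM in WT foamy barcodes. In other C1q barcodes the log2 ratio of Kif13b-/- over WT was 0.45 for Zmynd15, 1.64 for Edil3, 0.35 for Cacna1a and 0.16 for Vegfa. In foamy barcodes each of these 4 kept a log2 ratio above 1 without its 3 highest barcodes. With no stromal limits the ratios were 0.59 for Zmynd15, 0.29 for Edil3, 0.32 for Cacna1a and 0.21 for Vegfa, so that Zmynd15 alone of the 4 stayed past 1.5-fold. Thinned to 2000 UMIs per barcode Cacna1a was at 0.28, and Vegfa had a UMI in 6.21% of Kif13b-/- and 5.61% of WT foamy barcodes, against 24.9% of Kif13b-/- and 12.6% of WT unthinned. Nf2 and Atg4a followed, at log2 ratios of 1.03 and 0.95, against 0.61 and 1.03 in other C1q barcodes. Both lost the 1.5-fold call with no stromal limits, at 0.21 for Nf2 and -0.068 for Atg4a, and Nf2 also when thinned, at 0.084. Folr2 was higher at 0.68 (interval 0.47 to 0.91) and Tfeb, a lysosomal transcription factor, at 0.99 (interval 0.50 to 1.51).

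**Figure D5:**
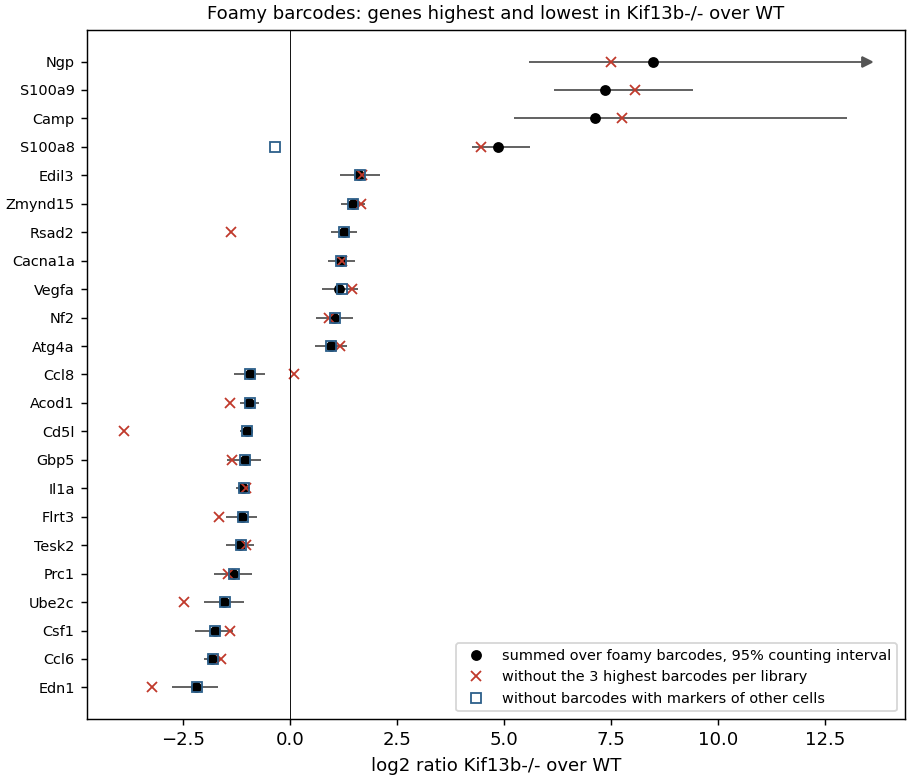
log2 ratio of Kif13b-/- over WT in foamy barcodes for the named genes highest and lowest in that ratio (black points, lines for 95% counting intervals; the arrow marks an unbounded interval). Red crosses leave out the 3 highest barcodes per library and blue squares leave out barcodes with markers of other cells: S100a8 falls below 0 without the barcodes of other cells, where Ngp, Camp and S100a9 have too few UMIs left for a point, and Rsad2 and Ccl8 change sign without the 3 highest.

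Edn1, the endothelin precursor, had the lowest ratio of Kif13b-/- over WT among the named genes, followed by Ccl6, Csf1 and the mitotic genes Ube2c and Prc1. Ccl6, a chemokine of myeloid cells, stood at 94.8 CPM in Kif13b-/- and 334 CPM in WT foamy barcodes, a log2 ratio of -1.82 (interval -2.01 to -1.63). Csf1, the macrophage colony-stimulating factor, stood at 18.8 CPM in Kif13b-/- and 63.9 CPM in WT foamy barcodes, a log2 ratio of -1.76 (interval -2.22 to -1.33). Il1a, the interleukin-1 alpha precursor, stood at 148 CPM in Kif13b-/- and 315 CPM in WT foamy barcodes, a log2 ratio of -1.09 (interval -1.26 to -0.92). In other C1q barcodes the log2 ratio was -1.335 for Ccl6, -0.91 for Csf1 and 0.03 for Il1a. In foamy barcodes all 3 kept a log2 ratio below -1 without the 3 highest barcodes. With no stromal limits Csf1 was at -0.56, short of 1.5-fold. Edn1 had a log2 ratio of -2.19, against -0.62 in other C1q barcodes. Few foamy barcodes held it, with 30 of its 38 Kif13b-/- UMIs and 81 of its 152 WT UMIs in 1 barcode each. Cd5l, a secreted scavenger receptor protein, had 466 of its 580 Kif13b-/- UMIs in 1 barcode. Its log2 ratio of -1.02 was -3.87 without the 3 highest barcodes. Tesk2, Flrt3, Gbp5, Acod1 and Ccl8 had log2 ratios between -1.17 and -0.95. In other C1q barcodes they were at -0.66, -0.30, -0.28, -0.97 and -1.99 in that order.

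Of 25 inflammatory genes 5 were lower in Kif13b-/- foamy barcodes (Il1a, Cxcl3, Ccl2, Ccl7 and Ptgs2) and none higher, with a median of -0.23. In other C1q barcodes the median was -0.18. Ccl2, a monocyte chemoattractant, stood at 579 CPM in Kif13b-/- and 1020.3 CPM in WT foamy barcodes. Ptgs2, the inducible cyclooxygenase, stood at 181 CPM in Kif13b-/- and 298 CPM in WT foamy barcodes, a log2 ratio of -0.72 in foamy and 0.20 in other C1q barcodes. Hmox1 was lower at -0.93 (interval -1.03 to -0.82). By the levels given above, it was also lower in Kif13b-/- than in WT other C1q barcodes. Among matrix genes Timp1, an inhibitor of metalloproteases, stood at 24.6 CPM in Kif13b-/- and 87.9 CPM in WT foamy barcodes, and Timp3 at 23.6 CPM in Kif13b-/- and 59.4 CPM in WT foamy barcodes. In WT, 1 barcode held 83 of the 235 Timp1 UMIs, and 1 barcode held 57 of the 159 Timp3 UMIs. Without the 3 highest barcodes the log2 ratio went from -1.83 to -1.23 for Timp1 and from -1.33 to -0.83 for Timp3. Resident macrophage genes had a median of -0.06 in foamy and -1.01 in other C1q barcodes.

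Of 12 monocyte genes 6 were higher and 1 lower in Kif13b-/- foamy barcodes. The list median was 0.54, and 0.26 without barcodes with markers of other cells. Plac8, a monocyte marker, stood at 9.70 CPM in Kif13b-/- and 0.374 CPM in WT foamy barcodes, and 1 barcode held 18 of its 30 Kif13b-/- UMIs. Chil3, a secreted lectin, stood at 9.70 CPM in Kif13b-/- and 0.748 CPM in WT foamy barcodes. Without barcodes with markers of other cells, 1 of its 30 Kif13b-/- and 2 of its 2 WT UMIs remained, too few for a ratio. F10, which encodes coagulation factor X, was at 1.19 and at -0.48 without its 3 highest barcodes.

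Proliferation genes were lower in Kif13b-/- foamy barcodes, in 12 of 22 cases with none higher and a median of -0.74. The median in other C1q barcodes was 0.14. Mki67, a marker of cycling cells, stood at 56.0 CPM in Kif13b-/- and 95.3 CPM in WT foamy barcodes, a log2 ratio of -0.77 (interval -1.06 to -0.48). Top2a, the replication topoisomerase, stood at 39.5 CPM in Kif13b-/- and 66.9 CPM in WT foamy barcodes. The summed list reached 1000 CPM in 20 of 177 Kif13b-/- (11.3%, 7.04% to 16.9%) and 44 of 214 WT foamy barcodes (20.6%, 15.4% to 26.6%). In other C1q barcodes it did so in 19.2% of Kif13b-/- and 29.2% of WT barcodes. The list median in foamy barcodes was -0.30 with each barcode thinned to 2000 UMIs.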

How the data were processed

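The authors deposited 1 filtered matrix of raw UMI counts per library, made with Cell Ranger 8.0.1 per the file headers on mm10 per the submitters' processing notes. Barcodes were gated as described, and UMI counts were summed over the gated barcodes of a library and scaled to CPM. log2 ratios used a prior count of 0.5, with exact conditional 95% intervals. Genes needed 20 UMIs over the groups compared, and a 1.5-fold ratio was called higher or lower. Intervals and floors cover counting error only. The members, the 33 gene lists and the 18 marker sets were chosen with earlier results of these data known. 4 listed symbols were not in the matrix and 2 shared by several features were left out. Named genes were the 12 highest and 12 lowest by ratio with at least 50 CPM in the higher group and 50 UMIs, plus those of the rule, Kif13b and Mertk. Between the states, the smaller of the 2 libraries' ratios was ranked. Classes left out included ribosomal protein, mitochondrial, haemoglobin, immunoglobulin, T cell receptor segment and uncharacterised genes. Genes over 3 times as high in barcodes with under 200 CPM of C1q genes as in foamy barcodes were also left out. That limit can drop genes very low in foamy barcodes from the 12 lowest. In the genotype comparison the interval had to exclude equal levels, and 1 gene is not reported here. Genes named from the lists for their values were chosen after those were seen. Coordinates are from GENCODE M21, which held 94.9% of 33696 features, and promoters from RefSeq. Scrublet (scanpy 1.11.5) marked 0 Kif13b-/- and 4 WT barcodes by its automatic threshold, which therefore did not work. The highest scores at a rate of 0.8% per 1000 barcodes were left out as an alternative, which removed 0 Kif13b-/- and 1 WT foamy barcodes. The calculation of ratios was run on simulated Poisson counts with known fold changes. These held no spread between barcodes or animals, so the run cannot speak to such spread in the real data. 14 planned and 3 added settings were tried.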

Additional observations from a re-analysis of the deposited data

Results flagged for a closer look

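Of 121 genes examined, those named by rank and those of the lists past 1.5-fold between the genotypes, 17 had a Kif13b-/- over WT ratio in foamy barcodes opposite to that in other C1q barcodes, each with counting intervals that excluded equal levels. Many of the genes examined were picked by their genotype ratio in foamy barcodes. The share of such opposite genes over all genes was not counted, so 17 of 121 cannot be set against it. With 1 library per genotype the difference between the states was not tested, and deep genes pass on small ratios. Values are the log2 ratio in foamy minus that in other C1q barcodes. Ube2c, a ubiquitin-conjugating enzyme of mitosis, had log2 ratios of -1.53 in foamy and 1.55 in other C1q barcodes, a difference of -3.09. In foamy barcodes its UMIs came from 8 Kif13b-/- and 18 WT barcodes. The differences of the cell cycle genes Cenpf, Prc1, Ccnb2 and Cenpe were -3.57, -2.05, -1.73 and -1.54. Lpl had -0.41 in foamy and 0.88 in other C1q barcodes, a difference of -1.29. Also lower in Kif13b-/- foamy and higher in Kif13b-/- other C1q barcodes were the iron exporter gene Slc40a1 at -3.05, Dcstamp at -0.94, Ptgs2 at -0.92 and the gate gene Spp1 at -0.45. Opposite to these were Plac8 at 5.20, the scavenger receptor gene Olr1 at 2.21, Folr2 at 1.54, Ctsk at 1.08, the gate gene Gpnmb at 0.74, H2-Eb1 at 0.56 and Ctsl at 0.51. Spp1 and Gpnmb were used to separate the states. Slc40a1 had 10 UMIs in Kif13b-/- and 25 in WT foamy barcodes. For Olr1, 3 barcodes held 68.1% of the Kif13b-/- and 64.3% of the WT foamy UMIs.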

How the results depend on the processing

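The foamy share of C1q barcodes was 58.8% in Kif13b-/- and 42.3% in WT with a gate sum of at least 3000 CPM, and 38.2% in Kif13b-/- and 28.1% in WT at 10000 CPM. It was 44.0% in Kif13b-/- and 29.6% in WT with Trem2 plus Gpnmb of at least 1000 CPM without Spp1. Of 3 settings added after seeing the data, no stromal limits gave 79.6% in Kif13b-/- and 48.1% in WT, and a gate sum of 5000 CPM with Trem2 plus Gpnmb of at least 1000 CPM gave 42.4% in Kif13b-/- and 27.1% in WT. Genes higher in foamy barcodes of both libraries numbered 1415 with no stromal limits, 366 with barcodes thinned to 2000 UMIs, 1663 with no minimum of UMIs and 430 with at least 100 UMIs. Genes lower in both numbered 487 thinned, 2249 with no minimum and 560 with at least 100 UMIs. Genes higher in Kif13b-/- foamy barcodes numbered 2398 with no stromal limits, 525 thinned, 3741 with no minimum and 181 with at least 100 UMIs. Genes lower numbered 1831, 455, 3343 and 134 under these settings, and 1062 with each barcode weighing the same. A minimum of UMIs changes how many genes are tested. Thinning changes how many UMIs are kept and also which barcodes are in each group, since the limits of the rule were applied again to the thinned counts. For thinning and the other settings the cause was not tested. Of the 854 higher and 684 lower genes, 516 and 453 stayed past 1.5-fold with equal weights, without the 3 highest barcodes and without barcodes with markers of other cells.

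Single genes changed direction between the genotypes. With no stromal limits Atg4a was at -0.068 and Rsad2 at -0.15. Thinned, Ccl8 was at 0.71 and Gbp5 at 0.28. Without the 3 highest barcodes Ccl8 was at 0.10 and Rsad2 at -1.39. S100a8 was at -0.24 with at least 5000 UMIs per barcode, -0.34 with a gate sum of at least 10000 CPM and -0.34 without barcodes with markers of other cells. The monocyte list of foamy over other C1q barcodes in WT was at 0.73 when thinned. Of the remaining values under other settings, 1218 gene and 1249 list values stayed within their interval or within 0.1, and 378 and 367 moved without turning a called direction. For foamy over other C1q barcodes, the lipid-associated list median fell as low as 0.41 in Kif13b-/- and 0.87 in WT. The lowest median was 0.22 in Kif13b-/- and 0.62 in WT for cathepsins and cystatins. It was -0.14 in Kif13b-/- and 0.14 in WT for V-ATPase subunits, and -0.04 in Kif13b-/- for lysosomal enzyme and membrane genes. No paired analysis was possible because each genotype has 1 library.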

Other observations

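Further gene lists separated foamy from other C1q barcodes little. Of 16 TREM2 partner and signalling genes 2 were higher in both libraries (Lgals3 and Apoe) and 1 lower (Treml4). Tyrobp, the adaptor that TREM2 signals through, stood at 1668 CPM in Kif13b-/- and 1553 CPM in WT foamy barcodes, against 1269 CPM in Kif13b-/- and 1064 CPM in WT other C1q barcodes. Of 12 complement genes 3 were higher (Itgax, Itgb2 and Cd59a) and 2 lower (C4b and Cfp). Of 15 don't-eat-me signals and receptors 3 were higher (Pirb, Lrp1 and Qpct) and 1 lower (Siglece). Of 14 unfolded protein response genes none was higher and 2 lower (Ern1 and Ppp1r15a), and of 22 immediate early and heat shock genes 1 was higher (Hsph1) and 1 lower (Hspa1b). No mitochondrially encoded transcript of 13 passed 1.5-fold in both libraries.

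Of 12 monocyte genes 3 were higher in foamy barcodes of both libraries (Fn1, S100a4 and S100a6) and 4 lower (Ly6c2, Chil3, Ccr2 and Thbs1). Fn1, which encodes fibronectin, stood at 1067 CPM in Kif13b-/- and 1112 CPM in WT foamy barcodes, against 441 CPM in Kif13b-/- and 458 CPM in WT other C1q barcodes. Of 22 proliferation genes none was higher in both libraries, 2 were lower (Hmgb2 and Pclaf) and 3 passed 1.5-fold in opposite directions.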
